A study of Mus musculus with 12 samples.

Results

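The genes described here encode the phospholipase C enzymes, IP3 receptors and protein kinase C alpha of the phosphoinositide pathway: Plcb1, Plcb2, Plcb3, Plcb4, Plcg1, Itpr1, Itpr2, Itpr3 and Prkca. The members are all non-control probes of the array that carry one of these 9 gene names, 19 probes in 28 spots, out of 43020 non-control spots and 29608 gene names. The set was selected on a measured value, the higher signal of Plcb4 in MRL/lpr than in MRL/+ mice, so values of the members in that comparison are given as a description with no p-value, and Plcb4 is described without a test in every comparison. Of the 9 members, 8 had at least 1 probe that passed the filters on spot quality and brightness, and 12 of the 19 probes did. Plcb2 had none.

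The cortex of 12 female mice was measured, 4 in each group, and the adult mice were taken in diestrus. MRL/lpr mice (MRL/MpJ, Fas lpr/lpr) carry a defective Fas gene, lack a working Fas death receptor and develop a lupus-like disease. Fn14ko mice are MRL/lpr mice in which Fn14, the receptor for the cytokine TWEAK and the product of Tnfrsf12a, was knocked out by backcrossing the null allele onto MRL/lpr, so these mice share the Fas lpr/lpr genotype. MRL/+ mice (MRL/MpJ) have intact Fas and Fn14 and were the controls. They were purchased, whereas the MRL/lpr and Fn14ko mice were littermates. Each of 6 Agilent arrays held 2 mice of one group, replicates 1 and 3 in the Cy3 channel and replicates 2 and 4 in the Cy5 channel. Since the slide and scan of each group carried that group alone, an effect of the slide and one of the group cannot be told apart. Nothing in bulk cortex RNA separates a change in the number of cells of a type from a change in RNA per cell.

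In this pathway a receptor coupled to a Gq protein activates a phospholipase C of the beta family, and growth factor receptors activate phospholipase C gamma 1. The enzyme cleaves the membrane lipid PIP2 into diacylglycerol, which stays in the membrane and activates protein kinase C, and soluble IP3, which opens IP3 receptors in the endoplasmic reticulum and releases stored calcium. In brain, Plcb1 is the main beta enzyme of the forebrain. Plcb4 is known for its level in Purkinje cells of the cerebellum and in the thalamus. Itpr1 encodes the main neuronal IP3 receptor.

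The readings of Plcb4 and Plcg1 depended on the probe, so the probe sequences that carry this difference are shown, numbered along the gene from its 5′ end. They were read from the scanner files, which also give the mm9 positions, and are written 5′ to 3′ in lower case with no base singled out. Each probe has 60 bases, printed whole for Plcb4 probe 2 and Plcg1 probe 1 and as the first 30 bases for the others. Exons and untranslated regions were not annotated here. Plcb4 lies on the plus strand of chromosome 2. Its probe 1 at chr2:135487286-135487345 lies far upstream of the others, probe 2 is at chr2:135807797-135807856, probe 3 at chr2:135838745-135838804 and probe 4 at chr2:135840255-135840314. Plcg1 lies on the same strand, with probe 1 at chr2:160587142-160587201 and probe 2 at chr2:160588680-160588739.
Plcb4 probe 1: catgcctcggaatccaggcttcgtgcttac
Plcb4 probe 2: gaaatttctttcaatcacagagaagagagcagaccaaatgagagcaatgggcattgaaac
Plcb4 probe 3: accgcagaccagcaacagtagtatgaaact
Plcb4 probe 4: gagggcagagaagattatgataccatgaag
Plcg1 probe 1: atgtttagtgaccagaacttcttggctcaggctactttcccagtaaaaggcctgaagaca
Plcg1 probe 2: gagcttttttgtttttatgacaaagacgac

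All signals below are spot intensities after background correction, divided by the median spot of the same channel, so that 1 is the brightness of the median spot of that mouse. A gene's signal is the mean of its spots. Differences are on the log2 scale with the standard error (SE) of a limma fit to all 12 mice, and a gene was called where its Benjamini-Hochberg adjusted p over all 17302 quantified genes was under 0.05. The 3 comparisons share mice, 4 in each pair of comparisons. Between 56.6% and 70% of spots were well above background in 10 of the 12 channels, but 35% and 21.2% in the Cy5 mice of MRL/+, replicates 2 and 4, whose dark control spots read 6.88 and 6.66 times their local background against 1.26 to 2.75 times in the others. Results that rest on these 2 mice are given with and without them. Tnfrsf12a had a mean signal of 0.694 ± 0.0786 (SD, n = 4) in Fn14ko, 1.68 ± 0.246 in MRL/lpr and 1.11 ± 0.152 in MRL/+, and was lower in Fn14ko than in MRL/lpr (log2 difference of MRL/lpr over Fn14ko 1.27, SE 0.19, limma adjusted p = 0.00287). Fas had a mean signal of 0.484 ± 0.217 in MRL/+, beside 0.203 ± 0.0555 in MRL/lpr mice and 0.239 ± 0.0757 in Fn14ko mice, and the groups overlapped. Both means were lowest in the groups labelled as lacking the gene product, but the differences to MRL/+ were not called. For Tnfrsf12a in Fn14ko this difference was -0.67 (limma adjusted p = 0.104). For Fas it was -1.14 in MRL/lpr and -0.92 in Fn14ko (limma adjusted p = 0.100 and 0.249).

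Plcb4, the beta enzyme for which the set was selected, had signals of 2.17, 3.66, 0.964 and 1.23 in MRL/lpr replicates 1 to 4. It read 0.482, 0.436, 0.617 and 0.401 in Fn14ko, and 0.565, 0.759, 0.455 and 0.629 in MRL/+. Every MRL/lpr mouse was above all 8 other mice, and the Fn14ko and MRL/+ mice overlapped. The log2 difference was 1.57 (SE 0.37) between MRL/lpr and MRL/+, a 2.96-fold difference. This direction is opposite to the one given for Plcb4 by the study, which sets both lpr groups below MRL/+. The log2 difference was 1.88 (SE 0.37) between MRL/lpr and Fn14ko and -0.31 (SE 0.37) between Fn14ko and MRL/+. The study's relative expression variability (REV) pools the coefficients of variation of a gene's spots over the 4 mice. It multiplies them by a correction that is larger for genes with fewer spots, so REV is not the plain SD as a percent of the mean. For Plcb4 it was 79.3% among MRL/lpr mice, 30.5% among Fn14ko mice and 34.2% among MRL/+ mice. The medians over all genes, which include genes with other numbers of spots, were 31.5%, 36.6% and 52.1%.

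**Figure D1:**
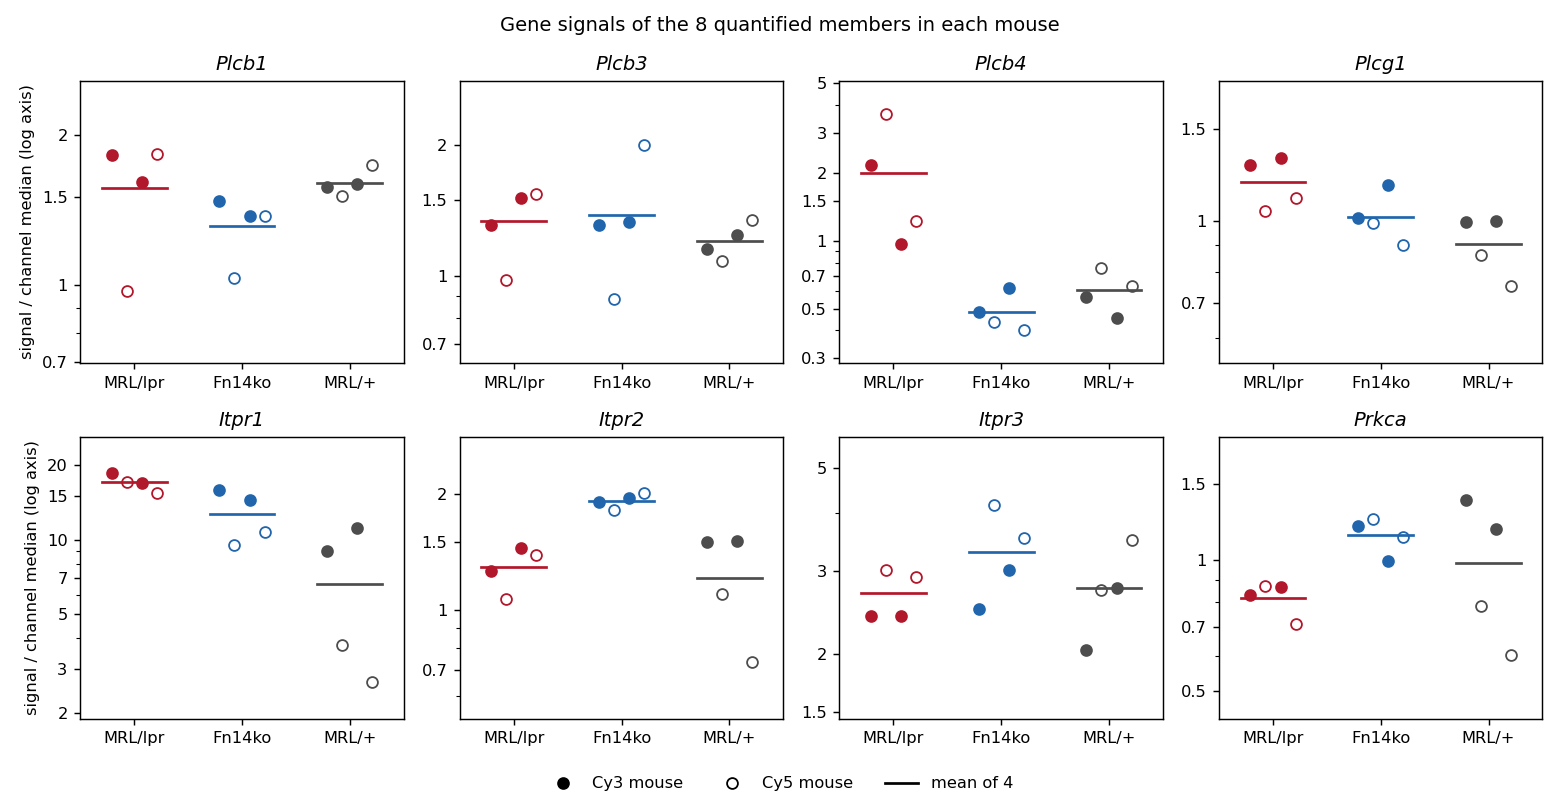
Signal of each of the 8 quantified members in each mouse, relative to the median spot of the channel, on log axes that differ between panels. Filled points are Cy3 mice, open points Cy5 mice, in the order of replicates 1 to 4, and lines are means of 4 mice. The 4 MRL/lpr mice lie above all others in Plcb4, and the open points of MRL/+ lie lowest in Itpr1.

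The Plcb4 difference was not of one size on all probes. Probe 4, the most downstream, read 2.57, 1.88, 1.67 and 2.16 in MRL/lpr, 0.563, 0.525, 1.02 and 0.639 in Fn14ko, and 0.659, 0.702, 0.581 and 0.404 in MRL/+. Here all 4 MRL/lpr mice were above all others, with a log2 difference to MRL/+ of 1.83 (SE 0.27) and to Fn14ko of 1.62 (SE 0.27).

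Probe 3 read 3.13 and 8.63 in MRL/lpr replicates 1 and 2, which shared an array, but 0.806 and 0.961 in replicates 3 and 4. The Fn14ko mice read 0.352 to 0.505 and the MRL/+ mice 0.443 to 0.872 on this probe, so that replicate 3 of MRL/lpr lay within the range of MRL/+. In replicate 2 probe 3 made up 78.6% of the summed signal of the 3 probes, and in replicate 1 it made up 48%, against 26.1% to 41.4% in the other 10 mice. The scanner software put no outlier mark on the spot, and its foreground was 137 and 103 times the local background in those 2 mice.

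Probe 2 read 0.816, 0.47, 0.417 and 0.558 in MRL/lpr, 0.376, 0.281, 0.335 and 0.211 in Fn14ko, and 0.472, 0.703, 0.34 and 0.701 in MRL/+. The MRL/lpr and MRL/+ mice overlapped on it, with a log2 difference of 0.04 (SE 0.38), while the MRL/lpr mice were above the Fn14ko mice by 0.90 (SE 0.38). The MRL/+ readings of 0.703 and 0.701 came from the Cy5 mice, in which the spot was not well above background. Its foreground there was 6.27 and 5.47 times the local background, below the 6.88 and 6.66 times of the dark control spots. Cy3 mice alone read 0.816 and 0.417 in MRL/lpr and 0.472 and 0.34 in MRL/+, which overlap too. A difference of probe 2 without the Cy5 mice was not computed. Probe 1 was well above background in 4 of 12 mice and was not quantified. It read 0.118 to 0.194 in MRL/lpr, 0.0782 to 0.249 in Fn14ko and 0.0881 to 0.694 in MRL/+. The 3 quantified probes share the gene, the RNA and the array and are not replicates of each other.

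The size of the Plcb4 difference between MRL/lpr and MRL/+ rested in part on the MRL/lpr array of replicates 1 and 2. Without that array it was 0.88 (SE 0.30), and without the array of replicates 3 and 4 it was 2.25 (SE 0.31). Without probe 3 it was 1.20 (SE 0.26), a value added after the data were seen. Without both Cy5 mice of MRL/+ it was 1.75 (SE 0.48), and among Cy3 mice alone 1.51 (SE 0.32). No alternative turned its direction.

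**Figure D2:**
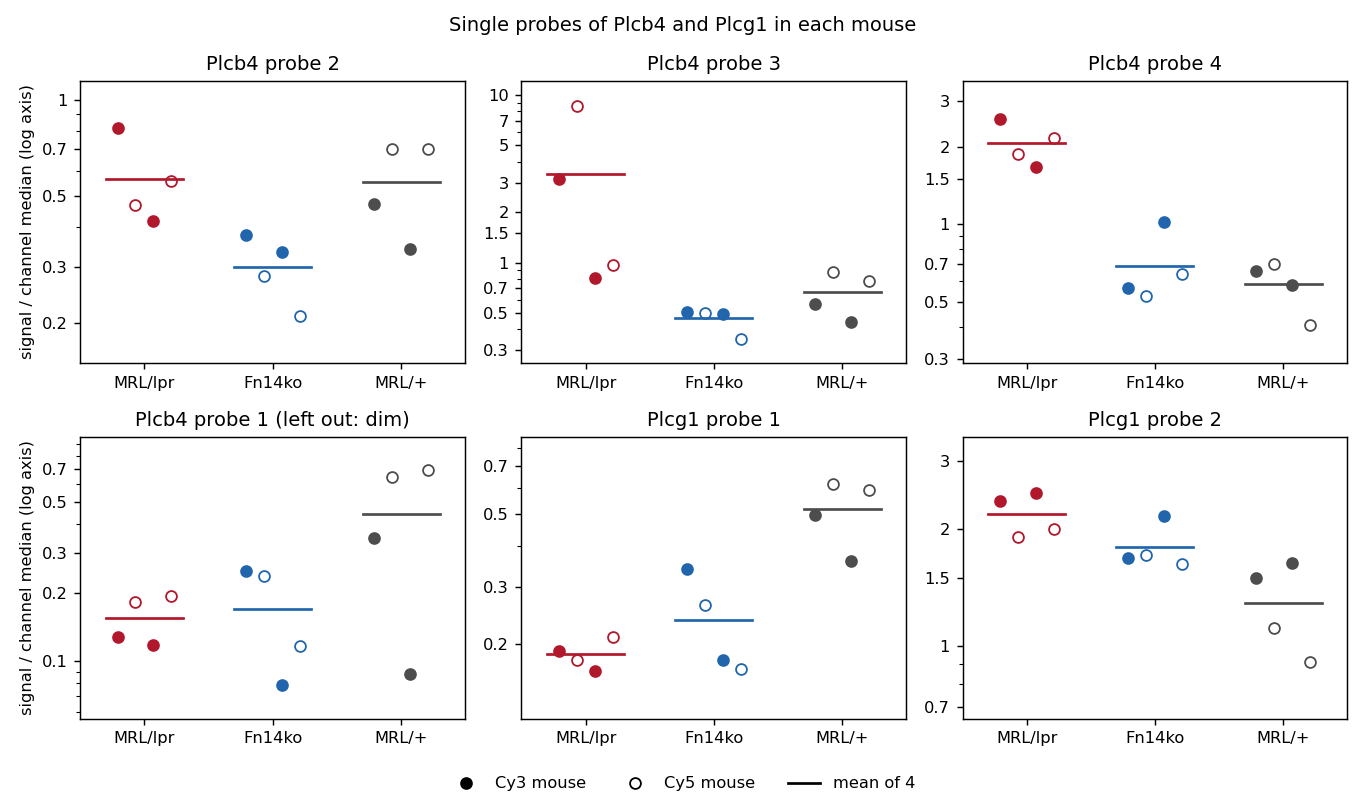
Signal of the 4 probes of Plcb4 and of the 2 quantified probes of Plcg1 in each mouse, relative to the median spot of the channel, on log axes that differ between panels (filled Cy3, open Cy5, lines are means of 4). Probe 4 of Plcb4 separates the MRL/lpr mice from all others, probe 3 is highest in the 2 MRL/lpr mice of one array, and the Plcg1 probes run in opposite directions.

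In the comparison that selected the set, MRL/lpr against MRL/+, 2 of the 8 quantified members were called, Plcb4 and Itpr1, both higher in MRL/lpr. Of all genes 6.03% were called higher and 8.37% lower, 14.4% in total. The mice of the groups did not overlap in 3 members, Plcb4, Itpr1 and Plcg1, as in 23.9% of all genes. The median log2 difference of the 8 was 0.14 beside -0.10 over all genes. Nothing is read from these counts, since the comparison was used for the choice. Without both Cy5 mice of MRL/+, 0 members were called by limma, beside 871 of all 17302 genes. In the fit to all mice 3 members and 34.7% of all genes had an unadjusted p under 0.05.

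In Fn14ko against MRL/+, 0 of 8 members were called by limma, where 0.954% of all genes were called, 0.237% as higher and 0.717% as lower. An unadjusted p under 0.05 was reached by 2 members, Itpr1 and Itpr2, and by 21.9% of all genes, and the methods' t-test gave 1 member unadjusted and 0 after Benjamini-Hochberg adjustment. The mice did not overlap in 2 members, Plcb1 and Itpr2, as in 13.5% of all genes. In MRL/lpr against Fn14ko, which rests on the MRL/lpr values of Plcb4 that selected the set, Plcb4 is left out, and 0 of the other 7 members were called by limma, where 4.57% of all genes were called, 2.58% as higher and 1.99% as lower. Of these 7 members, 1 (Itpr2) had an unadjusted p under 0.05, beside 18.6% of all genes, and 2 (Itpr2 and Prkca) did not overlap, beside 20.3% of all genes, and the methods' t-test gave 0 members after adjustment. Among the 9 single probes of members other than Plcb4, 0 were called in Fn14ko against MRL/+ (1.09% of all probes) and 0 in MRL/lpr against Fn14ko (4.03%). The comparison of the choice, MRL/lpr against MRL/+, called 4 of all 12 probes (15%), from which nothing is read.

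**Figure D3:**
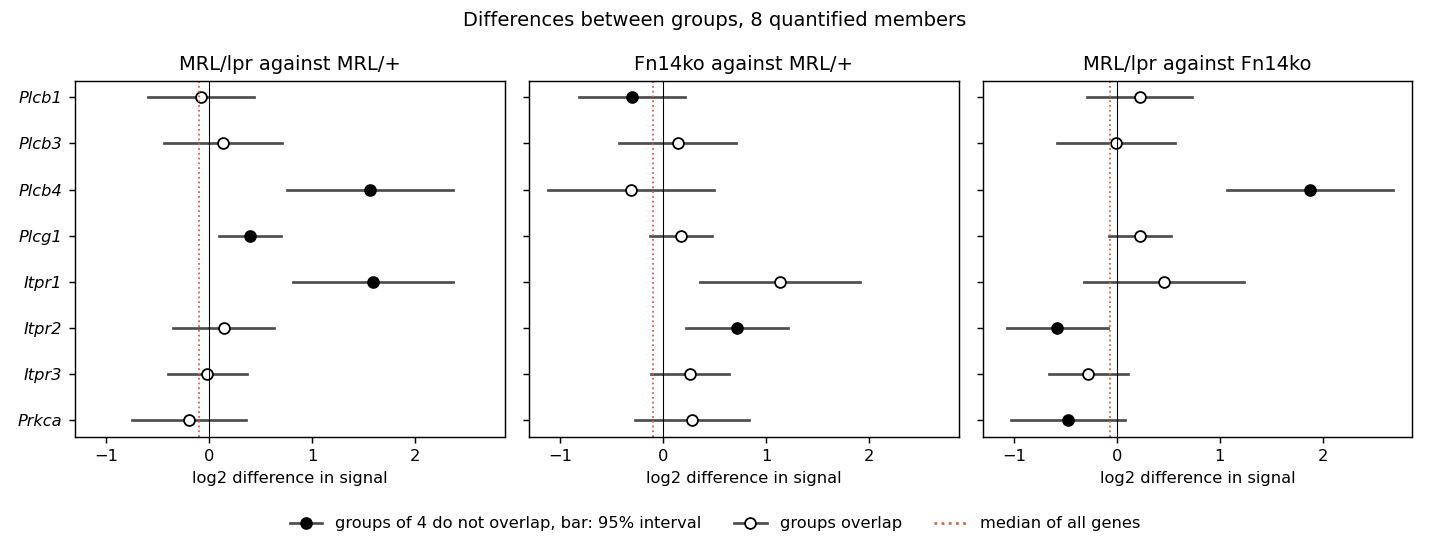
Log2 difference of each quantified member in the 3 comparisons, with its 95% interval from the limma fit to 12 mice. Filled points are genes in which the 4 mice of one group do not overlap the 4 of the other, and the dotted line is the median over all genes. Plcb4 stands at 1.57 and 1.88 in the comparisons with MRL/lpr, and Itpr2 is the member whose intervals leave 0 in both comparisons with Fn14ko.

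The other beta enzymes differed little between the groups. Plcb1 read 1.83, 0.974, 1.62 and 1.84 in MRL/lpr, 1.47, 1.03, 1.38 and 1.38 in Fn14ko, and 1.57, 1.51, 1.6 and 1.74 in MRL/+. All Fn14ko mice were just below all MRL/+ mice, with a log2 difference of -0.30 (95% interval -0.81 to 0.21, limma adjusted p = 0.414, exact permutation p = 0.0286, the smallest that 70 divisions of 8 mice allow). The exact test here and below takes no account of dye or of mice sharing an array, as the limma fit does. The Plcb1 difference turned to 0.36 when spots with an outlier mark were kept, through another probe of the gene that read higher in both lpr groups than in MRL/+. MRL/lpr differed from Fn14ko in Plcb1 by 0.22 (interval -0.29 to 0.73, limma adjusted p = 0.701), and from MRL/+ by -0.08 (SE 0.24).

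Plcb3, a broadly expressed beta enzyme, read 0.981 to 1.54 in MRL/lpr, 0.884 to 2.01 in Fn14ko and 1.09 to 1.35 in MRL/+, on 1 probe. The ranges of all 3 groups overlapped, the log2 differences were 0.13 (MRL/lpr against MRL/+, SE 0.26), 0.14 (Fn14ko against MRL/+, interval -0.43 to 0.71) and -0.01 (MRL/lpr against Fn14ko, interval -0.58 to 0.56), and the limma adjusted p of the last 2 comparisons was 0.736 and 0.991. Plcb2, known mainly from blood cells and taste cells, had 2 probes, well above background in 1 and 2 of the 12 mice. They read 0.0649 to 0.175 and 0.0727 to 0.163 in MRL/lpr, with values up to 1.19 and 0.531 in the Cy5 mice of MRL/+ in which neither was well above background. No difference of Plcb2 was detectable on this array.

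Plcg1, the enzyme downstream of growth factor receptors, had a gene signal of 1.28, 1.04, 1.32 and 1.11 in MRL/lpr, 1.01, 0.992, 1.17 and 0.901 in Fn14ko, and 0.997, 0.865, 1 and 0.753 in MRL/+. The MRL/lpr mice lay above the MRL/+ mice, with Fn14ko between and overlapping both. The log2 difference was 0.40 (SE 0.14) between MRL/lpr and MRL/+, 0.18 (interval -0.12 to 0.48, limma adjusted p = 0.412) between Fn14ko and MRL/+, and 0.22 (interval -0.08 to 0.52, limma adjusted p = 0.434) between MRL/lpr and Fn14ko.

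The 2 quantified probes of Plcg1 ran in opposite directions. Probe 2 read 1.91 to 2.47 in MRL/lpr, 1.63 to 2.16 in Fn14ko and 0.913 to 1.64 in MRL/+, and was higher in MRL/lpr than in MRL/+ by 0.79 (SE 0.19). Probe 1 read 0.166 to 0.211 in MRL/lpr, 0.168 to 0.34 in Fn14ko and 0.36 to 0.617 in MRL/+, and differed by -1.45 (SE 0.34). Neither probe's mice overlapped between MRL/lpr and MRL/+. The gene mean follows probe 2, the brighter, and when the probes were weighed alike as a median of log2 values the difference to MRL/+ turned to -0.33 in MRL/lpr and -0.32 in Fn14ko. In Fn14ko against MRL/+ the limma adjusted p over all probes was 0.108 for probe 1 (log2 difference -1.15, SE 0.34) and 0.155 for probe 2 (0.51, SE 0.19). Probe 1 was well above background in 3 MRL/lpr mice, 4 Fn14ko mice and 2 MRL/+ mice.

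Itpr1, the main IP3 receptor of neurons, read 18.6, 17.1, 16.9 and 15.4 in MRL/lpr, 15.8, 9.53, 14.4 and 10.7 in Fn14ko, and 9.01, 3.77, 11.2 and 2.65 in MRL/+. The MRL/lpr mice were above all MRL/+ mice, while Fn14ko overlapped both groups. The Cy5 mice of MRL/+ were the lowest of all. The log2 difference was 1.59 (SE 0.36) between MRL/lpr and MRL/+, 1.13 (interval 0.36 to 1.91, limma adjusted p = 0.125, exact permutation p = 0.0857) between Fn14ko and MRL/+, and 0.46 (interval -0.32 to 1.23, limma adjusted p = 0.562, exact permutation p = 0.0571) between MRL/lpr and Fn14ko. Without both Cy5 mice of MRL/+ the first difference was 0.94 (SE 0.24) and the second 0.48 (SE 0.24, limma adjusted p = 0.745). REV of Itpr1, which had 1 spot, was 132% in MRL/+, 50.8% in Fn14ko and 16.5% in MRL/lpr. In MRL/+ the plain SD was 4.09 around a mean of 6.65.

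Itpr2, the IP3 receptor known from astrocytes in brain, was quantified on 1 spot of 1 probe and was the member with the narrowest spread in Fn14ko. It read 1.91, 1.81, 1.94 and 2.01 in Fn14ko, 1.27, 1.07, 1.45 and 1.39 in MRL/lpr, and 1.5, 1.1, 1.51 and 0.735 in MRL/+. All Fn14ko mice were above all mice of the other groups, which overlapped each other. The log2 difference to MRL/+ was 0.72 (interval 0.23 to 1.21, limma adjusted p = 0.125, exact permutation p = 0.0286), and MRL/lpr differed from Fn14ko by -0.58 (interval -1.07 to -0.09, limma adjusted p = 0.189, exact permutation p = 0.0286). Neither passed the limma threshold after adjustment. Without both Cy5 mice of MRL/+ the first was 0.39 (SE 0.18), while the second does not involve them. Beside this, 10 of 10 astrocyte markers were quantified, 0 of them called in any comparison by limma, with summed signals of 52.2 to 62.4 in MRL/lpr, 49.7 to 56.2 in Fn14ko and 41.3 to 55.9 in MRL/+. Of these markers 2 had an unadjusted p under 0.05 in Fn14ko against MRL/+ and 1 in MRL/lpr against Fn14ko. The shares of all genes were 21.9% and 18.6%. A second probe of Itpr2 was left out as dim, and was well above background in 2 MRL/lpr mice and 0 other mice. It read 0.0431 to 0.235 in Fn14ko, 0.047 to 0.507 in MRL/lpr and 0.0622 to 0.508 in MRL/+.

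Itpr3, an IP3 receptor better known from epithelial and secretory cells, is printed 10 times on the array with 1 probe, and 8 of its spots were kept. It read 2.4 to 3.02 in MRL/lpr, 2.49 to 4.16 in Fn14ko and 2.03 to 3.5 in MRL/+, and all groups overlapped. The log2 difference was -0.02 (SE 0.18) between MRL/lpr and MRL/+, 0.26 (interval -0.12 to 0.64, limma adjusted p = 0.353) between Fn14ko and MRL/+, and -0.28 (interval -0.66 to 0.10, limma adjusted p = 0.442) between MRL/lpr and Fn14ko. Its probe at chr17:27259102-27259161 lies 3.45 Mb from that of Tnfrsf12a, the knocked-out gene, on the same chromosome.

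Prkca, a calcium-dependent protein kinase C, read 0.831, 0.872, 0.865 and 0.711 in MRL/lpr, 1.2, 1.24, 0.995 and 1.13 in Fn14ko, and 1.38, 0.785, 1.18 and 0.604 in MRL/+. Every MRL/lpr mouse was below every Fn14ko mouse, and the MRL/+ mice spanned both groups, with the Cy3 mice high and the Cy5 mice low. The log2 difference of MRL/lpr to Fn14ko was -0.48 (interval -1.03 to 0.08, limma adjusted p = 0.348, exact permutation p = 0.0286). The difference of Fn14ko to MRL/+ was 0.28 (interval -0.27 to 0.83, limma adjusted p = 0.477) and turned to -0.17 without both Cy5 mice of MRL/+. MRL/lpr differed from MRL/+ by -0.20 (SE 0.26), and by -0.65 (SE 0.20) without those mice. A second, brighter probe of Prkca carried an outlier mark and was left out. In it 3 MRL/lpr mice read 5.3 to 5.69 and replicate 2 read 14.5, beside 7.5 to 9.69 in Fn14ko and 6.28 to 10.7 in MRL/+. The exact tests above are 6 of the 14 made, over 7 members and 2 comparisons, and the other 8 gave p = 0.143 or more.

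**Figure D4:**
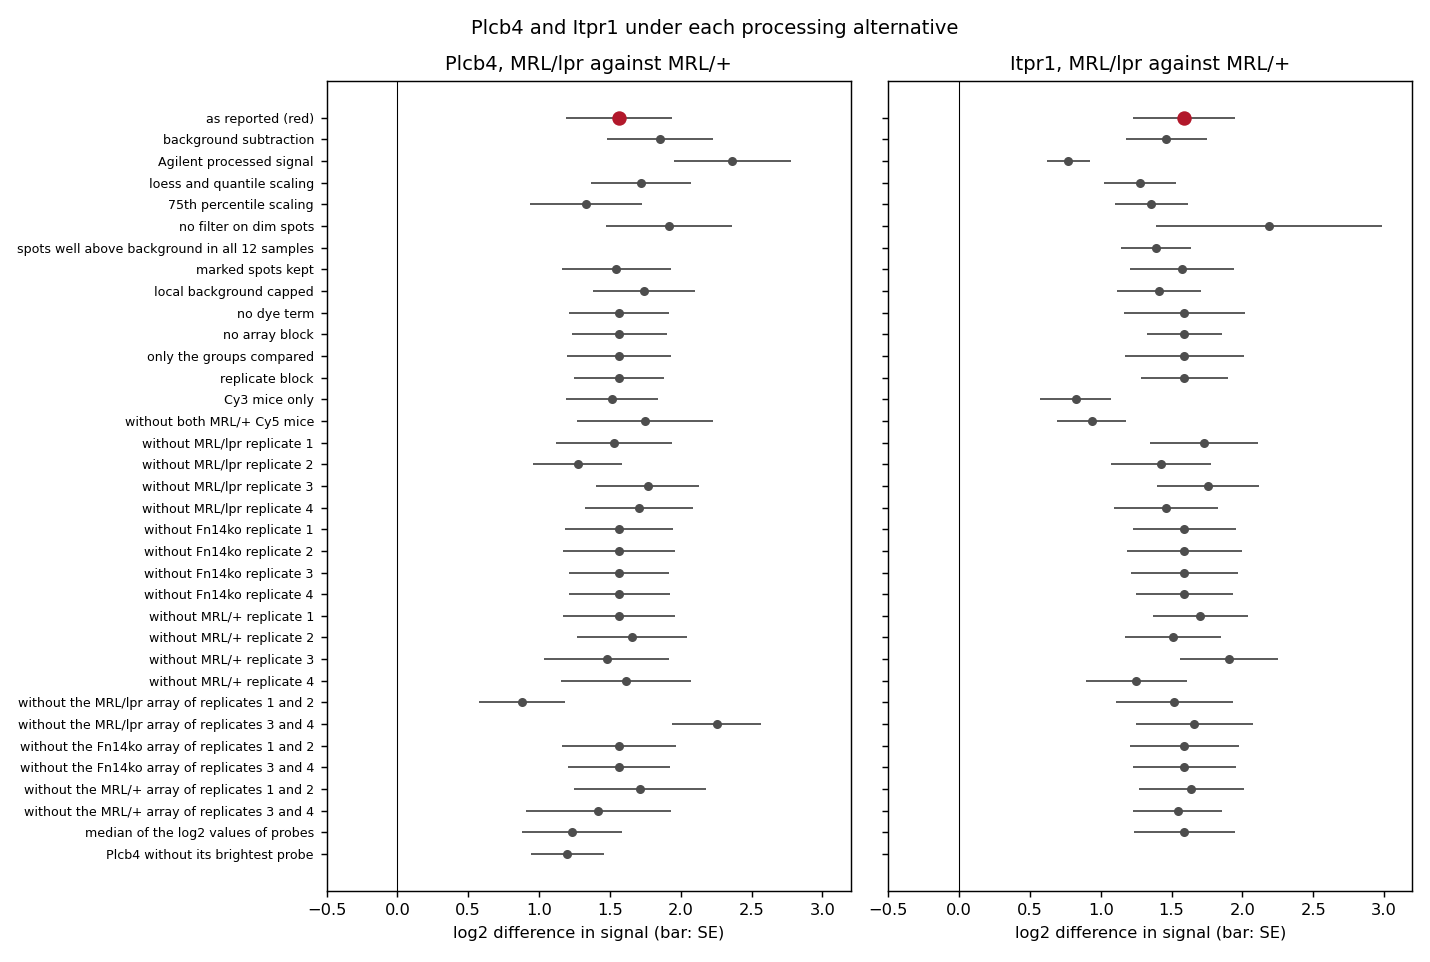
Log2 difference of Plcb4 and Itpr1 between MRL/lpr and MRL/+ as reported (red) and under each processing alternative, with SE. All values are above 0. Plcb4 runs from 0.88 without the MRL/lpr array of replicates 1 and 2 to 2.36 with the scanner's processed signal, and Itpr1 from 0.77 with that signal to 2.19 without the filter on dim spots.

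Around the members, 171 other genes of the pathway were listed in 9 groups, and 148 were quantified. In MRL/lpr against MRL/+, 40 of them were called (27% of the 148, beside 14.4% of all genes), 18 higher and 22 lower, and their median log2 difference was 0.03 beside -0.10 over all genes. In MRL/lpr against Fn14ko, 16 were called (10.8%, beside 4.57% of all genes), 7 higher and 9 lower, and in Fn14ko against MRL/+ 1 was called, Pi4kb (0.676%, beside 0.954%). Without both Cy5 mice of MRL/+ these counts were 25, 12 and 0 by limma, beside 871, 538 and 6 of all 17302 genes. The 25 were 7 higher and 18 lower in MRL/lpr, while 44.55% of the 871 were higher, so the near-even split of the 40 depended on these mice. In Fn14ko against MRL/+, 30 of the 148 had an unadjusted p under 0.05 in the fit to all mice, beside 21.9% of all genes. The lists were written with earlier results of these data known, and their counts are a description. Of the genes named below, those no longer past the limma threshold without these mice were Rgs4 (adjusted p = 0.0761), Grk3 (0.0810), Plcd4 (0.188) and Dgkz (0.133) in MRL/lpr against MRL/+, Pi4kb (0.0587) in Fn14ko against MRL/+, and Pip4k2a (0.0675) in MRL/lpr against Fn14ko.

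Among 22 quantified receptors that couple to Gq, 1 was higher and 3 were lower in MRL/lpr than in MRL/+, with a median log2 difference of -0.38. Cckbr, the brain cholecystokinin receptor, rose by 1.91 (SE 0.38, limma adjusted p = 0.00695), from 0.639 to 1.15 in the MRL/+ mice to 2.21 to 3.5 in the MRL/lpr mice, and was higher in MRL/lpr than in Fn14ko too, by 1.53 (SE 0.38, limma adjusted p = 0.0361). Trhr, the receptor of thyrotropin-releasing hormone, was lower in MRL/lpr, by -1.52 (SE 0.25) against MRL/+ and -1.37 (SE 0.25) against Fn14ko. Of 12 quantified Gq subunits and regulators, 3 rose in MRL/lpr against MRL/+ and 0 fell. Rgs4, which speeds the shut-off of Gq, rose by 1.19 (SE 0.25, limma adjusted p = 0.00949), and Grk3, a receptor kinase that ends signalling, rose by 0.89 (SE 0.19, limma adjusted p = 0.00884). No gene of this group was called in Fn14ko against MRL/+ or in MRL/lpr against Fn14ko. There 3 and 2 had an unadjusted p under 0.05, beside 21.9% and 18.6% of all genes.

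A list of 11 other genes held phospholipases C and the phospholipase C-like Plcl1 and Plcl2. Of these 11, 3 rose and 1, Plcl1, fell in MRL/lpr against MRL/+, and 3 were higher in MRL/lpr than in Fn14ko. Plcd3, a delta enzyme, read 1.97 to 2.33 in MRL/lpr, 0.831 to 1.38 in Fn14ko and 0.641 to 0.744 in MRL/+, and the MRL/lpr mice stood above all others. It rose by 1.63 (SE 0.18, limma adjusted p = 0.000425) against MRL/+ and by 1.02 (SE 0.18, limma adjusted p = 0.00669) against Fn14ko. Plcd4, another delta enzyme, rose by 1.17 (SE 0.32, limma adjusted p = 0.0316) against MRL/+, but its 3 probes disagreed, and their median of log2 values gave -0.01. Plcxd1, which holds the catalytic X domain of the family, was higher in MRL/lpr than in Fn14ko by 1.26 (SE 0.30, limma adjusted p = 0.0316).

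A list of 11 other kinases held protein kinases C and the protein kinase D genes Prkd1, Prkd2 and Prkd3. Of these 11, 2 rose and 2 fell in MRL/lpr against MRL/+, and 1 was lower in MRL/lpr than in Fn14ko. Prkcd, which encodes the calcium-independent delta kinase and is abundant in thalamus, read 0.621 to 0.92 in MRL/lpr, 1.86 to 3.5 in Fn14ko and 2.37 to 4.6 in MRL/+. It was lower by -2.06 (SE 0.28, limma adjusted p = 0.00102) against MRL/+ and -1.82 (SE 0.28, limma adjusted p = 0.00335) against Fn14ko. Prkcd and Rgs16 stand in the list of 10 thalamus markers as well, of which 0 were higher and 1, Prkcd, was lower in MRL/lpr in both comparisons, and the summed signals of that list were 13.1 to 20.8 in MRL/lpr, 12.6 to 18.9 in Fn14ko and 14.2 to 18.9 in MRL/+. Of these 10 markers, Prkcd included, 5 had an unadjusted p under 0.05 in MRL/lpr against MRL/+, beside 34.7% of all genes. The mice did not overlap in 3 of the markers, beside 23.9% of all genes. The median log2 difference of the 10 was -0.36, beside -0.10 over all genes.

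Diacylglycerol kinases end the lipid signal by phosphorylation. Of 12 such kinases and lipases, 2 rose and 2 fell in MRL/lpr against MRL/+. Dgkg read 1.42 to 1.83 in MRL/lpr, 4.36 to 6.73 in Fn14ko and 3.02 to 9.35 in MRL/+, and was lower in MRL/lpr by -1.85 (SE 0.38) and -1.68 (SE 0.38) in the comparisons with MRL/+ and Fn14ko (limma adjusted p = 0.00834 and 0.0226). Dgkz rose by 1.07 (SE 0.25) against MRL/+. In the turnover of inositol phosphates, 1 gene rose and 2 fell of 17 against MRL/+, and 0 were called in the comparisons with Fn14ko (4 in each had an unadjusted p under 0.05). The 2 that fell against MRL/+ in MRL/lpr were Minpp1, an inositol polyphosphate phosphatase, by -1.80 (SE 0.39), and Ippk, which makes IP6, by -1.35 (SE 0.24). Minpp1 was almost as low in Fn14ko, at -1.66 (SE 0.39, limma adjusted p = 0.0646) against MRL/+, and MRL/lpr differed from Fn14ko by -0.15. Ippk lay between in Fn14ko, at -0.58 (SE 0.24, limma adjusted p = 0.193) against MRL/+.

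Of 19 genes that supply phosphoinositides, 3 rose and 3 fell against MRL/+. Pitpnm3, of the family of phosphatidylinositol transfer proteins, rose by 1.95 (SE 0.24, limma adjusted p = 0.000641). Pi4kb, a kinase that makes the precursor of PIP2, read 1.17 to 1.85 in MRL/+ but 0.34 to 0.529 in MRL/lpr and 0.235 to 0.474 in Fn14ko, and was lower than in MRL/+ in both, by -1.74 (SE 0.28) and -1.95 (SE 0.28), with limma adjusted p = 0.00257 and 0.012. Without both Cy5 mice of MRL/+ the Fn14ko difference was -2.18 (limma adjusted p = 0.0587). Pip4k2a was lower in MRL/lpr than in Fn14ko by -0.81 (SE 0.18, limma adjusted p = 0.0192).

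Of 28 quantified genes of calcium stores and calcium entry, 2 were higher and 7 lower in MRL/lpr against MRL/+, and 2 higher and 3 lower against Fn14ko. Itpripl2, a relative of the IP3 receptor-interacting protein, read 1.35 to 4.63 in MRL/lpr, 0.266 to 0.427 in Fn14ko and 0.291 to 0.644 in MRL/+, and rose by 2.35 (SE 0.32, limma adjusted p = 0.00102) and 2.77 (SE 0.32, limma adjusted p = 0.000722). The channels Trpc5 and Trpc4, which open downstream of phospholipase C, were lower. Trpc5 read 0.288 to 0.332 in MRL/lpr and 0.952 to 1.37 in MRL/+ (-1.87, SE 0.20), and Trpc4 read 0.6 to 0.809 in MRL/lpr and 1.57 to 2.81 in Fn14ko (-1.73, SE 0.25). Of 16 substrates and anchors of protein kinase C, 1 rose and 2 fell against MRL/+. Ppp1r14a, an inhibitor of myosin phosphatase, was lower by -1.10 (SE 0.22) against MRL/+ and -1.18 (SE 0.22) against Fn14ko.

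**Figure D5:**
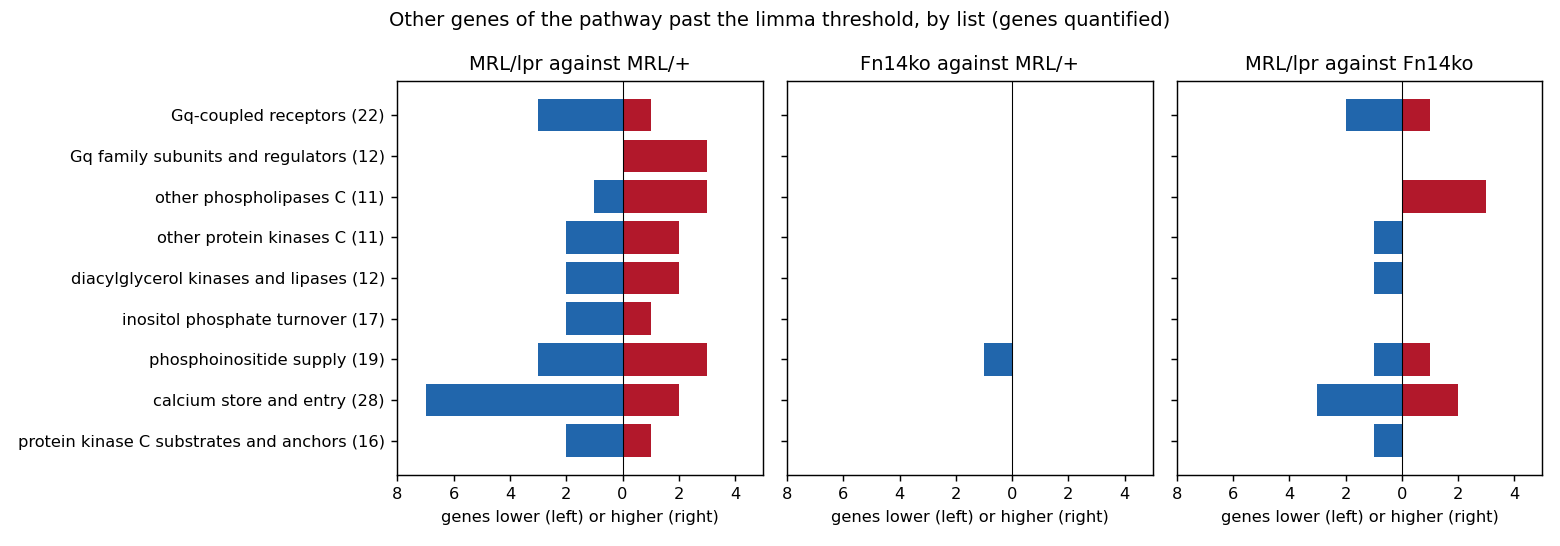
Number of other pathway genes called higher (red, right) or lower (blue, left) by limma in each list and comparison, with the number quantified in brackets. Against MRL/+, 18 genes were higher and 22 lower in MRL/lpr, and 1 gene, Pi4kb, was called in Fn14ko.

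Markers of other tissues and cells were read beside these results. All 10 cortical excitatory neuron markers were quantified, and their summed signal was 50.7 to 61.6 in MRL/lpr, below the 65.2 to 90.8 of Fn14ko and the 67.2 to 104 of MRL/+. Their calls did not go one way. In MRL/lpr against MRL/+ 3 were called higher and 3 lower, with a median log2 difference of -0.05, and against Fn14ko 1 higher and 1 lower, with a median of -0.45. Against MRL/+ 7 had an unadjusted p under 0.05 and 7 did not overlap, beside 34.7% and 23.9% of all genes. Against Fn14ko these counts were 8 and 7, beside 18.6% and 20.3%. The summed signal of 10 endothelial and mural markers was 21.7 to 26.6 in MRL/lpr, 16.8 to 24.5 in Fn14ko and 13.8 to 17.3 in MRL/+. Of these markers 2 were called higher in MRL/lpr against MRL/+, with a median log2 difference of 0.57. An unadjusted p under 0.05 was reached there by 7, beside 34.7% of all genes. Of the cerebellum markers 4 of 10 were quantified, with sums of 2.56 to 10.9 in MRL/lpr, 3.21 to 4.14 in Fn14ko and 3.41 to 4.87 in MRL/+, and Car8, Gabra6 and Cbln3 were among those not quantified. Of the 4 quantified, 1 was called lower in MRL/lpr against MRL/+. Striatum markers summed to 20.8 to 43.5, 15.8 to 169 and 10.7 to 20.7 in the same order of groups, and choroid plexus markers to 7.74 to 102, 14.2 to 186 and 18.6 to 269.8. Of 9 quantified choroid plexus markers 1 was called lower in MRL/lpr in each comparison, with median log2 differences of -1.44 against MRL/+ and -1.86 against Fn14ko. An unadjusted p under 0.05 was reached by 3 and 4 of them, beside 34.7% and 18.6% of all genes, and the groups overlapped in all 9. Myelin markers summed to 67.0 to 109, 92.1 to 115 and 87.6 to 104. Of the 10 myelin markers 1 was called higher and 3 lower in MRL/lpr against MRL/+ (median log2 difference -0.69), and 1 higher and 2 lower against Fn14ko (median -0.77). Against Fn14ko, 9 had an unadjusted p under 0.05, beside 18.6% of all genes, and 6 did not overlap, beside 20.3%. Microglia markers summed to 39.5 to 63.9, 41.9 to 52 and 41.9 to 52.4, and 1 of 10 was called higher in MRL/lpr against MRL/+. Of the lymphocyte markers 4 of 10 were quantified and 0 were called by limma, with 1 at an unadjusted p under 0.05 in each comparison. The part of cell composition in the values of the members was not tested.

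The genes most like Plcb4 over the 12 mice, by Pearson's r of log2 signals, were Ddit4l (0.974), the transcript ENSMUST00000229816.1 (0.973), Etl4 (0.970), Jade1 (0.964) and Ttc14 (0.952). Each was higher in MRL/lpr than in both other groups, by 1.01 to 2.85 against MRL/+. After the mean of each group was removed, the most alike were Ttc14 (0.959), Acrbp (0.958), Atp13a5 (0.949), Ighmbp2 (0.947) and Pde4d (0.946). Among the other members r over the 12 mice ran from -0.50 for Prkca to 0.43 for Plcg1, and Itpr1 stood at 0.37. All of these are descriptions over 12 mice that share arrays, 2 by 2.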

How the data were processed

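The authors deposited the scanner output of 6 arrays, which holds the mean foreground intensity and median local background intensity of every spot in both channels, the software's marks, and its processed signal (Agilent Feature Extraction 12.1.0.3 and genome build mm9 by the file headers). Groups, dyes and arrays came from the labels, which tell of 4 separate mice a group. Spots marked as uneven or outlying in any channel, and spots whose foreground did not reach 2 times the background around them in all 12 samples, were removed, which kept 24255 spots and 22419 probes of 17302 genes. Background was corrected by normexp (offset 50), each channel was divided by its median, spots of a gene were averaged, and log2 values were fitted in limma 3.58.1 (R 4.3.3) with group, dye and a random array block (correlation 0.316), Benjamini-Hochberg at 0.05. Exact permutation tests were 2-sided over 70 divisions. They treated the mice as exchangeable, although mice share arrays 2 by 2, and so can overstate the evidence. The number of arrays limits precision. The model was tested on simulated data. Members and gene lists were chosen with earlier results of these data known. Named were all members, from each list and comparison the 2 genes with the largest difference among those called whose groups did not overlap, the 5 genes most like Plcb4 before and after removal of group means, and Tnfrsf12a and Fas. Some genes that this rule names are not reported here.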

Additional observations from a re-analysis of the deposited data

Results flagged for a closer look

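A probe of Plcb1 outside the quantified genes, probe 3 (chr2:135300906-135300965, first 30 bases gtggcatgatgtttcttccacttgtaattt), was left out because the scanner software marked its spot as an outlier in at least 1 channel. It was well above background in all 4 mice of both lpr groups and read higher there than in any control mouse: its mean was 3.72 in MRL/lpr and 3.61 in Fn14ko, beside 0.701 to 2.65 in MRL/+. Within MRL/+ the Cy3 mice read 2.65 and 2.29 and the Cy5 mice 1.09 and 0.701. The part of the Cy5 channel of MRL/+ in this difference was not tested further, and the Cy3 mice alone keep its direction. No mouse of the 24 sets of 4 signals (8 members in 3 groups) lay far enough from the others of its group to pass Dixon's criterion, of which chance would pass about 1 in 20.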

How the results depend on the processing

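The log2 difference of Plcb4 between MRL/lpr and MRL/+ kept its direction under all 33 alternatives. It was 2.36 with Agilent's processed signal, 0.88 to 2.25 when a mouse or an array was left out, and 1.57 with the replicate block (the replicate number, which also marks the dye, in place of the dye). Plcb4 was not quantified when only spots well above background in all 12 samples were kept.

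Members called in MRL/lpr against MRL/+ numbered 0 without a filter on dim spots, 1 with only spots well above background, 1 among Cy3 mice, 0 without both MRL/+ Cy5 mice and 0 by the methods' t-test after Benjamini-Hochberg adjustment, and 0 to 2 when a mouse or array was left out (0 without MRL/+ replicate 4, and 1 without the MRL/lpr array of replicates 1 and 2 or the MRL/+ array of replicates 3 and 4). In Fn14ko against MRL/+ they numbered 2 with background subtraction, 1 with only spots well above background, 2 with the local background capped, 2 with no array block and 1 by the t-test unadjusted, and 0 to 2 when a mouse or array was left out (2 without MRL/+ replicate 3). These were Itpr1 and Itpr2, or Itpr1 alone where 1 was called by limma. In MRL/lpr against Fn14ko they numbered 2 with background subtraction, 0 without a filter on dim spots, 0 with only spots well above background, 0 in a fit to the 2 groups compared, 2 by the t-test unadjusted and 0 by it after adjustment, and 0 to 1 when a mouse or array was left out (0 without Fn14ko replicate 2, MRL/+ replicate 4 or the Fn14ko array of replicates 1 and 2). Counts in the comparisons with MRL/lpr include Plcb4 and are a description. The calls over all genes moved with the settings too, as given with the pathway genes below. Single probes of members called numbered 0 without a filter on dim spots in both comparisons with MRL/lpr, and 3 with the processed signal in MRL/lpr against Fn14ko.

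Pathway genes called in MRL/lpr against MRL/+ numbered 1 without a filter on dim spots, 65 with no array block, 64 with the replicate block, 26 among Cy3 mice, 25 without both MRL/+ Cy5 mice, and 61 and 7 by the t-test before and after adjustment, and 22 to 60 when a mouse or array was left out (22 without MRL/+ replicate 4 or the MRL/lpr array of replicates 1 and 2, and 60 without MRL/+ replicate 3). In Fn14ko against MRL/+ they numbered 27 with background subtraction, 5 with the processed signal and with the 75th percentile, 17 with loess, 0 without a filter on dim spots and without both MRL/+ Cy5 mice, 9 with only spots well above background, 21 with the local background capped, 3 with no dye term, 23 with no array block, 4 in a fit to the groups compared and among Cy3 mice, 14 with the replicate block, 2 with the median of probes, and 30 and 0 by the t-test, and 0 to 13 when a mouse or array was left out (13 without MRL/+ replicate 3 and 10 without Fn14ko replicate 1). In MRL/lpr against Fn14ko they numbered 35 with background subtraction, 29 with loess, 1 without a filter on dim spots, 32 with the local background capped, 30 with no array block, 8 among Cy3 mice, and 38 and 0 by the t-test, and 3 to 19 when a mouse or array was left out (3 without the Fn14ko array of replicates 1 and 2, and 8 without Fn14ko replicate 2 or MRL/+ replicate 4). The share of higher genes among these calls moved in MRL/lpr against MRL/+ from 45% to 28% without both MRL/+ Cy5 mice. It was 34.6% among Cy3 mice, and 27.3% to 52.9% when a mouse or array was left out. In MRL/lpr against Fn14ko the share moved from 43.8% to 31% with loess, 31.4% with background subtraction and 31.2% with the local background capped. It was 12.5% of the 8 calls among Cy3 mice there, and 22.2% to 50% when a mouse or array was left out. In Fn14ko against MRL/+ no share is compared, since 1 gene was called. The 75th percentile moved the median of all genes from -0.10 to -0.34 in MRL/lpr against MRL/+ and from -0.10 to -0.35 in Fn14ko against MRL/+. Without the filter on dim spots, 22 of 29149 genes were called in MRL/lpr against MRL/+. Calls over all genes moved with the other settings too. In MRL/lpr against MRL/+ they went from 2492 of 17302 genes to 5189 with no array block. Among Cy3 mice they were 1356, and without both MRL/+ Cy5 mice 871. In Fn14ko against MRL/+ they went from 165 to 2837 with background subtraction, 1422 with loess and 1881 with no array block. In MRL/lpr against Fn14ko they went from 790 to 2849, 2219 and 1782 with the same settings. The cause of these changes was not tested.

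Directions turned in differences that were not past the threshold, and in Plcd4. With loess Plcb3 in MRL/lpr against Fn14ko was 0.0115, with the 75th percentile it was 0.00516, among Cy3 mice 0.10, and when a mouse or array was left out -0.31 to 0.29. In Fn14ko against MRL/+ the 75th percentile gave -0.11 for Plcb3 and -0.0728 for Plcg1, and leaving out a mouse or array gave -0.16 to 0.44 for Plcb3. Plcb1 was 0.43 there without a filter on dim spots and 0.36 with marked spots kept, and Prkca -0.22 among Cy3 mice and -0.17 without both MRL/+ Cy5 mice. The median of probes gave -0.32 for Plcg1 there, -0.00606 for Plcg1 in MRL/lpr against Fn14ko and -0.00993 for Plcd4 in MRL/lpr against MRL/+. Same-numbered mice correlated by -0.13 to 0.72 in their deviations from the group means, not above 0.1 in every pair, so the numbers do not pair them. With the replicate block 3, 0 and 1 members were called in the 3 comparisons, with Plcg1 added in MRL/lpr against MRL/+. The precision of all values is limited by 4 mice a group, and of dim probes by the MRL/+ Cy5 channels.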
